A study of Mus musculus with 9 samples.

Results

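Acetate was given to cultured mouse cortical astrocytes that had no glucose, and their RNA was set against that of glucose-free cultures without acetate. The 2 groups hold 6 of the 9 libraries measured, chosen by their treatment labels: 3 with acetate and 3 controls. The acetate group is labelled Sodium Acetate (10 mM) for 1 day with 1 day glucose-free, and the control group is labelled Naïve with 1 day glucose-free. All were wild-type (WT) primary cultures of C57BL/6 P1 pups, grown in serum, moved to glucose-free medium on day 11 in vitro and harvested on day 12. The labels do not say whether pups were pooled or whether replicates came from separate dissections. They call the samples biological replicates, and the p-values measure only the spread between these samples. The other 3 libraries had 1 µM amyloid-beta (Aβ) for 5 days besides acetate. They entered the fit to estimate the spread and the difference between library sets. Through the set difference they also move the acetate estimates, so a fitted value can lie outside both within-set values.

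Acetate is turned into acetyl-CoA by ACSS2 in the cytosol and nucleus and by ACSS1 in mitochondria. Astrocytes are known in the brain as the cells that take up and oxidise acetate. Acetyl-CoA is the carbon source of the mitochondrial tricarboxylic acid cycle, of fatty acids and of cholesterol, and the acetyl donor for histones. Astrocytes also make cholesterol, under the control of the transcription factor SREBP2. Astrocytes of newborn pups still divide in culture, and transcripts of the mitotic machinery are made in the late part of the cell cycle, largely under FOXM1, B-MYB and the DREAM complex.

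Many genes of mitosis and of cholesterol synthesis had small differences in the same direction, lower with acetate. None of the 14058 genes tested passed an adjusted p of 0.05 in either direction (0% higher, 0% lower, smallest adjusted p = 0.999995, limma with the library set as a covariate). The leading genes were Nek2, Ckap2l and Lss. Nek2 is a kinase that parts the centrosomes before mitosis, and Ckap2l is a protein of the mitotic spindle. Lss is an enzyme of the steps from squalene to lanosterol in cholesterol synthesis. The medians of the lists of acetate use, the tricarboxylic acid cycle, fatty acid synthesis and histone acetylation stood close to 0. All log2 differences are acetate minus control on the log2(CPM + 1) scale, where CPM is counts per 1000000 reads over the listed genes. This scale understates differences of low genes.

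The promoters of the 3 leading genes are shown because members of both groups share letters there. Each window runs from 250 bases before to 50 bases after the annotated start (RefSeq, build GRCm38.p6, which mm10 names in UCSC style). It is read 5′ to 3′ on the gene's strand, and capitals mark CCAAT and TTTGAA on either strand (ATTGG and TTCAAA when read backwards). The windows lie at chr1:191821223-191821522 (plus strand) for Nek2, chr2:129297163-129297462 (minus strand) for Ckap2l and chr10:76531355-76531654 (plus strand) for Lss.
Nek2: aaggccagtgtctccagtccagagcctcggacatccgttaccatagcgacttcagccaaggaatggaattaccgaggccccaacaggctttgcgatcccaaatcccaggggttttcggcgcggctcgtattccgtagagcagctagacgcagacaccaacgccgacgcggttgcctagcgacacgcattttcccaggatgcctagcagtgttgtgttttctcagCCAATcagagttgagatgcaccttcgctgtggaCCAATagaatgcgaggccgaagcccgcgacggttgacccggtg
Ckap2l: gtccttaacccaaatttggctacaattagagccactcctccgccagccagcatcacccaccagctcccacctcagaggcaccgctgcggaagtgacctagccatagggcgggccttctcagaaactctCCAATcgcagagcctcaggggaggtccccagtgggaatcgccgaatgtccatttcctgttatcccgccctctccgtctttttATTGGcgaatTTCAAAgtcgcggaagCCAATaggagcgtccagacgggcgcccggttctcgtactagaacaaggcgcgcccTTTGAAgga
Lss: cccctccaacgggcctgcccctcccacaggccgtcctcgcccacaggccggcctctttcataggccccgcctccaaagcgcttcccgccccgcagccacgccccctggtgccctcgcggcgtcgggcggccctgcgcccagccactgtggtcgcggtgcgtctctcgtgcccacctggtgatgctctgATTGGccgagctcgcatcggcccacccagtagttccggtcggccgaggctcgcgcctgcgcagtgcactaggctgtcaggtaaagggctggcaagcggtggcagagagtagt
The TTTGAA motif, the core of the cell cycle homology region known from late cell-cycle promoters, lay in the window of 24 of 32 mitosis genes that had one (75%). It lay in 4 of 33 DNA replication genes (12.1%), 1 of 17 cholesterol genes (5.88%) and 5466 of all 27025 genes (20.2%). CCAAT, the motif bound by NF-Y, lay in 26 of 32 mitosis genes (81.2%), 16 of 17 cholesterol genes (94.1%), 19 of 33 replication genes (57.6%) and 11096 of all genes (41.1%). The Ckap2l window holds both motifs, with a CCAAT that begins 14 bases before the start and a TTCAAA that begins 30 bases before it. Nek2 holds CCAAT from 26 bases before the start and again from 7 bases after it, and Lss holds 1 ATTGG, from 62 bases before. The sterol regulatory element letters TCACNCCAC, searched on both strands, lay in 1 of 17 cholesterol windows (5.88%) and 388 of all genes (1.44%). A match describes the letters and is not a binding site.

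The 6 libraries carried more of another difference than of acetate. Library names come in 2 styles, which divide the 6 into 2 library sets of a kind that no label describes. Set 1 holds acetate 1 with controls 1 and 2, and set 2 holds acetates 2 and 3 with control 3. Within a set, the median absolute log2 difference over all genes was 0.106 to 0.171 for the 4 pairs of an acetate and a control library. It was 0.150 between acetates 2 and 3 and 0.169 between controls 1 and 2, so pairs that differ in treatment were about as far apart as replicates within a set. Between sets it was 0.358 to 0.490 for libraries of the same treatment. The smallest step of the CPM values implied a depth, in units of 1000000 reads, of 33.2, 39.3 and 43.5 in acetates 1, 2 and 3, against 57.0, 22.2 and 35.5 in controls 1, 2 and 3. The ribosomal precursor Rn45s took 3.38, 2.17 and 1.45% of acetate CPM, against 2.17, 0.875 and 1.36% of control CPM.

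The acetate differences of the 2 sets did not run together across genes. In set 1 the difference is acetate 1 minus the mean of controls 1 and 2, and in set 2 it is the mean of acetates 2 and 3 minus control 3. Pearson's r between them was -0.20 over 14058 genes and -0.24 over the 11809 genes with a mean CPM of at least 5. These values are across genes, which are not independent replicates, and each set rests on 3 libraries. The 2 values had the same sign for 41.5% of genes, against 8219 genes of opposite sign. Lower in both sets were 3797 (27%), and 2042 were higher in both (14.5%). In set 1, 8653 genes were lower (median -0.05), and in set 2, 6898 were higher (median -0.0040). A test of set 2 minus set 1 called 0 genes (limma interaction term, smallest adjusted p = 0.0906), with 1016 at an unadjusted p under 0.05. With the 6 libraries alone, it called 1.

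**Figure D1:**
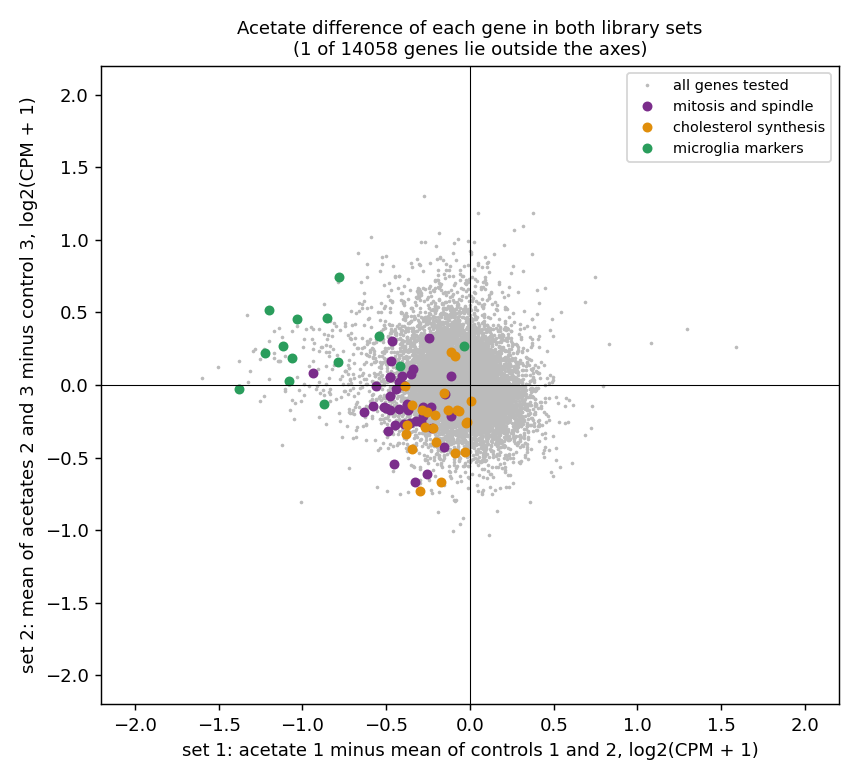
Acetate difference of 14058 genes, acetate minus control in log2(CPM + 1), in set 1 (horizontal) and in set 2 (vertical). Grey points are all genes, purple points mitosis and spindle genes, orange points cholesterol synthesis genes and green points microglia markers. The 2 sets are related by r = -0.20, mitosis and cholesterol genes lie mostly at the lower left, and microglia markers lie left of 0 and mostly above it. 1 gene lies outside the axes.

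By unadjusted p under 0.05, 341 genes were lower (2.43%) and 112 higher (0.797%), 453 in all where 702.9 would come by chance alone. Without control 1 this count was 836. Every acetate library lay below every control library of its own set, in both sets, for 1497 genes (10.6%), and above for 621 (4.42%). That split moved with the scaling, to 953 below and 1167 above with median-of-ratios scaling and to 1026 below and 1052 above with quantile scaling. It moved to 1214 below and 835 above when Rn45s was left out of the CPM total. With 1 acetate library in set 1 and 1 control in set 2, genes can meet this rule by chance alone. These counts were not tested against chance. All 3 acetate libraries lay below all 3 controls for 218 genes (1.55%) and above for 86 (0.612%). The median of all genes was -0.02, and 8448 of 14058 genes (60.1%) stood below 0. Median-of-ratios scaling moved that median to 0.01 and the count below 0 to 6395, so a list near 0 can change side with the scaling. It also moved the genes lower at an unadjusted p under 0.05 to 202.

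Nek2 (chromosome 1, 191821473 to 191833050, plus strand, mm10 as deposited) had 13.7, 10.7 and 10.6 CPM in acetates 1, 2 and 3, against 20.1, 18.4 and 16.0 CPM in controls 1, 2 and 3. The groups did not overlap, and set 2 was the lower set in both groups. Its log2 difference was -0.50 (SE 0.094, unadjusted p = 0.000225, adjusted p = 0.999995), with -0.45 in set 1 and -0.54 in set 2. Ckap2l (chromosome 2, 129268210 to 129297213, minus strand) had 28.7, 20.0 and 16.7 CPM with acetate, against 35.9, 36.7 and 29.7 CPM in controls. The groups did not overlap, although acetate 1 came near control 3. The log2 difference was -0.52 (SE 0.11), with -0.33 in set 1 and -0.67 in set 2. Nek2 and Ckap2l are both in the mitosis list.

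All 39 members of the mitosis and spindle list stood below 0 (38 with any of the 3 other scalings), with a median of -0.29 against -0.02 for all genes. Of these, 20 had an unadjusted p under 0.05 (2.43% of all genes were lower at this p), 11 with median-of-ratios scaling, and 0 passed over all genes. In both sets 28 of 39 were lower (27% of all genes), and 21 lay beyond the controls of their own set in both (10.6% of all genes). The list median was -0.40 in set 1, where 39 of 39 members were lower, and -0.15 in set 2, where 28 were. Against single libraries it was -0.35 for acetate 1 against control 1 and -0.48 against control 2, and -0.08 for acetate 2 and -0.18 for acetate 3 against control 3. Control 1 against control 2, with no acetate in either, gave -0.15. The members share the 6 libraries, so their number does not measure replication. The list median was -0.46 without control 3. The median level of the list was 0.80 lower on the log2 scale in set 2 than in set 1, a distance larger than the acetate difference in either set.

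The roles within the list differed little in the fit, apart from cytokinesis. The median was -0.27 over 8 mitotic kinases, -0.29 over 6 motors, -0.27 over 8 proteins of the spindle and midzone, -0.33 over 5 mitotic cyclins and parts of the anaphase-promoting complex, and -0.31 over 7 proteins of the kinetochore and chromosomal passenger complex. It was -0.26 over 3 genes of chromatin and transcription and -0.15 over 2 of cytokinesis. Every role was farther below 0 in set 1, which has 1 acetate library. Role medians ran from -0.24 (cytokinesis) to -0.48 (kinetochore and passenger complex) in set 1. In set 2 they ran from 0.01 (cytokinesis) to -0.21 (motors), with -0.09 for mitotic kinases. The members described next were chosen after their values were seen. Kif11, the motor that pushes spindle poles apart, had 25.6, 22.1 and 20.6 CPM with acetate, against 26.8, 35.3 and 33.2 CPM in controls. Its groups did not overlap, by a margin of about 1 CPM between acetate 1 and control 1 (log2 -0.44, SE 0.12). Kif20a, a motor of the central spindle, had 16.1, 8.40 and 8.78 CPM, against 22.2, 23.9 and 10.9 CPM in controls (log2 -0.44, SE 0.11). It was lower within each set, and the groups overlapped across sets.

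Plk1, a kinase needed at most steps of mitosis, was among the members whose sets went apart. It had 8.41, 6.18 and 5.10 CPM with acetate, against 17.4, 16.7 and 5.23 CPM in controls. Its difference was -0.94 in set 1 and 0.09 in set 2. Cdk1, the kinase that starts mitosis, had 29.2, 14.5 and 14.7 CPM, against 38.3, 39.5 and 14.6 CPM in controls, with -0.40 in set 1 and -0.0028 in set 2. Mki67, a coat protein of mitotic chromosomes used to mark dividing cells, had 54.9, 40.3 and 42.0 CPM, against 75.1, 78.3 and 39.5 CPM in controls. In all 3 genes acetate 1 lay below both controls of its set, while acetates 2 and 3 lay close to control 3.

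Genes of DNA replication stood closer to 0 than those of mitosis. Of 42 members, 39 were below 0 (60.1% of all genes), with a median of -0.11. With median-of-ratios scaling 36 were below 0 (6395 of all 14058 genes). In both sets 23 of 42 were lower (27% of all genes). By unadjusted p under 0.05, 4 were lower (2.43% of all genes), and 13 lay below the controls of their own set in both sets (10.6% of all genes). The median was -0.19 in set 1 and -0.04 in set 2. All 15 genes of helicase loading and unwinding were below 0 (median -0.12), but 10 were lower in both sets and their set 2 median was -0.03. For nucleotide supply 6 of 6 were below 0 (5 with median-of-ratios scaling, median -0.13), and 4 were lower in both sets. For polymerases, clamp and ligase 11 of 13 were below 0 (median -0.12), and 7 were lower in both sets. Genes of G1/S control and chromatin had a median of -0.07, with 7 of 8 below 0 (5 with median-of-ratios scaling) and 2 lower in both sets. Those 2 of 8 were near the share of all genes lower in both sets (27%).

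Mcm7, a subunit of the replicative helicase, had 46.0, 43.5 and 41.4 CPM with acetate, against 53.5, 52.9 and 48.3 CPM in controls. The groups did not overlap (log2 -0.21, SE 0.076, unadjusted p = 0.0191). Cdc45, which completes that helicase, had 4.88, 4.78 and 6.27 CPM, against 6.91, 6.86 and 7.09 CPM in controls. These groups did not overlap either, and the 3 controls lay within 0.3 CPM of each other (log2 -0.36, SE 0.13, unadjusted p = 0.0182). Both sets held the direction for each gene, at -0.21 and -0.18 for Mcm7 and at -0.42 and -0.32 for Cdc45.

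**Figure D2:**
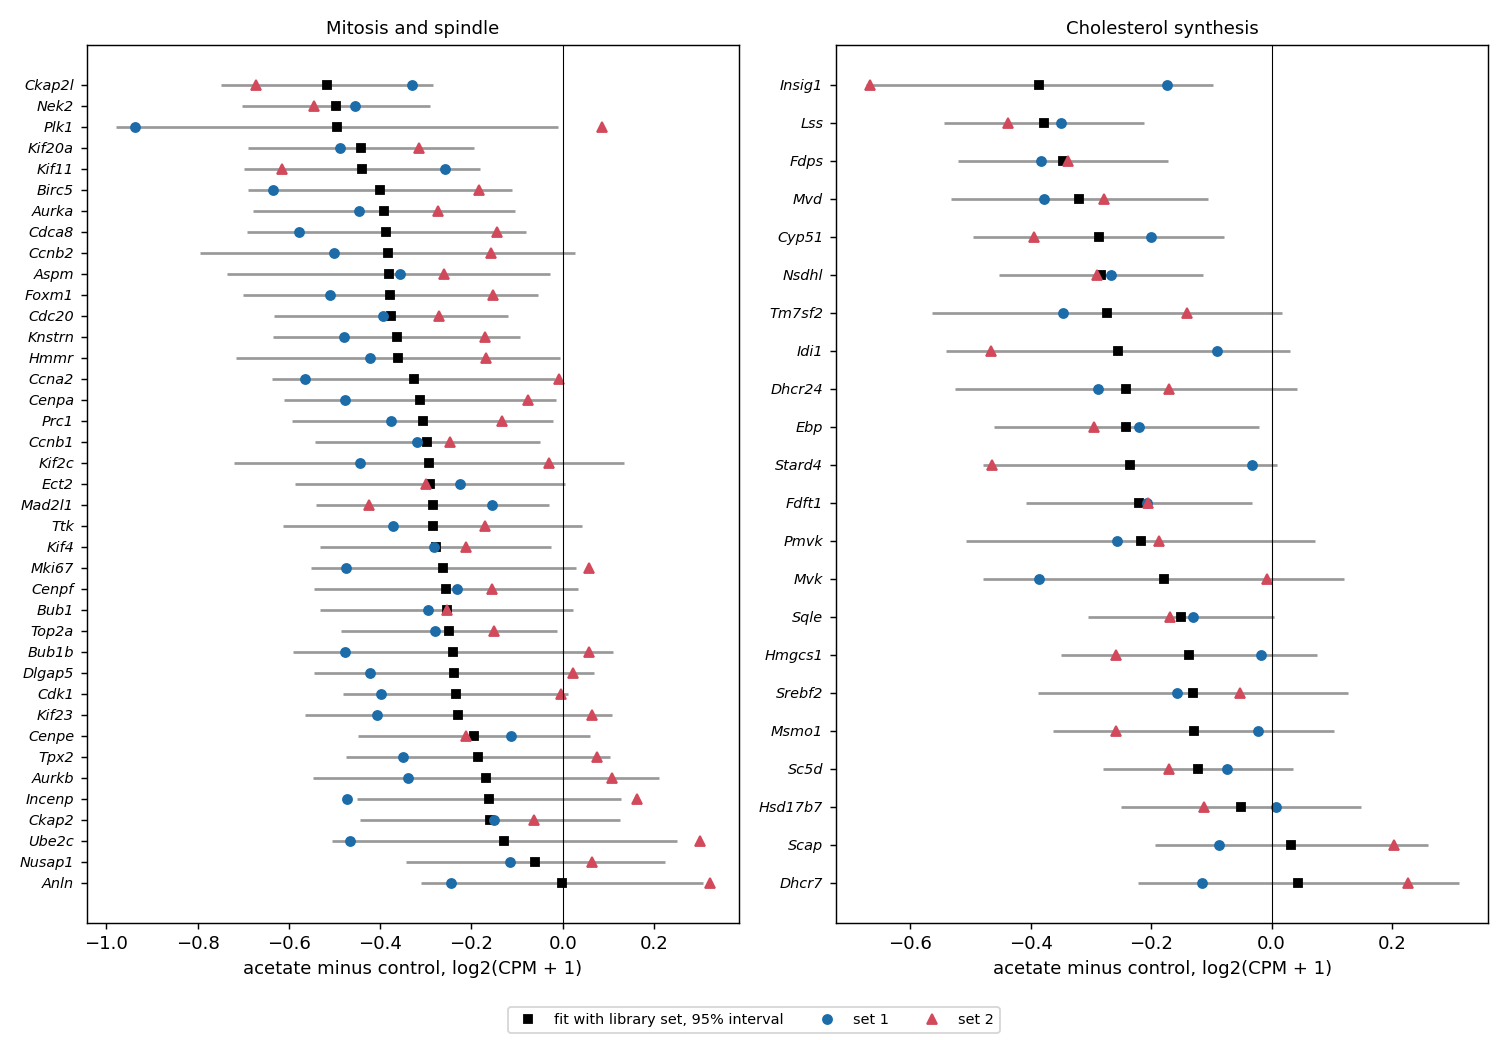
Acetate difference of each member of the mitosis and spindle list (left) and of 22 of the 24 cholesterol synthesis genes (right), acetate minus control in log2(CPM + 1). Black squares with grey bars are the fit with the library set and its 95% interval, blue circles set 1 and red triangles set 2. All 39 mitosis members (38 with other scalings) and 20 of the 22 cholesterol members plotted have a square below 0, and red triangles lie right of 0 for 11 of 39 mitosis members.

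Members of cholesterol synthesis also stood mostly below 0. Of 24 members tested, 22 were below 0, under each of the 4 scalings, with a median of -0.23, which was -0.19 in set 1 and -0.23 in set 2. In both sets 21 of 24 were lower (27% of all genes), and 12 lay below the controls of their own set in both (10.6%). By unadjusted p under 0.05, 9 were lower (2.43% of all genes) and 0 passed over all genes. Single libraries gave -0.20 and -0.21 for acetate 1 against controls 1 and 2, and -0.18 and -0.32 for acetates 2 and 3 against control 3. Control 1 against control 2 gave -0.00048. The direction of this list appeared in earlier work on these data, so it is described here and supports nothing independently. The list's level was 0.99 lower on the log2 scale in set 2, and without acetate 3 the median was -0.15.

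The steps of the pathway stood at similar values. The 7 genes from the mevalonate steps to farnesyl diphosphate were all below 0, with a median of -0.22. The 3 genes from squalene to lanosterol had a median of -0.22. The 9 genes from lanosterol to cholesterol had -0.24, with 8 below 0, and 5 genes of uptake and control had -0.23, with 4 below 0. Lss (chromosome 10, 76531605 to 76557140, plus strand) had 43.3, 44.4 and 43.2 CPM with acetate, against 56.3, 54.4 and 59.7 CPM in controls. Its level differed little between the sets, and every acetate library lay about 10 CPM or more below every control. The log2 difference was -0.38 (SE 0.076, unadjusted p = 0.000363), with -0.35 in set 1 and -0.44 in set 2.

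Fdps, the farnesyl diphosphate synthase, had 50.8, 36.3 and 32.5 CPM with acetate, against 66.3, 66.8 and 43.7 CPM in controls. It was lower within each set, while acetate 1 lay above control 3 (log2 -0.35, SE 0.080, unadjusted p = 0.00107). Nsdhl and Cyp51, enzymes of the lanosterol branch named after their values were seen, stood at -0.28 (SE 0.077) and -0.29 (SE 0.095). Insig1, which helps hold SREBP2 in the endoplasmic reticulum (ER), had 170, 69.3 and 67.1 CPM, against 178, 207 and 109 CPM in controls. Its log2 difference was -0.39 (SE 0.13), farther from 0 in set 2. Insig1, too, was chosen after its values were seen. Dhcr7 and Scap were the 2 members above 0, at 0.04 and 0.03.

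**Figure D3:**
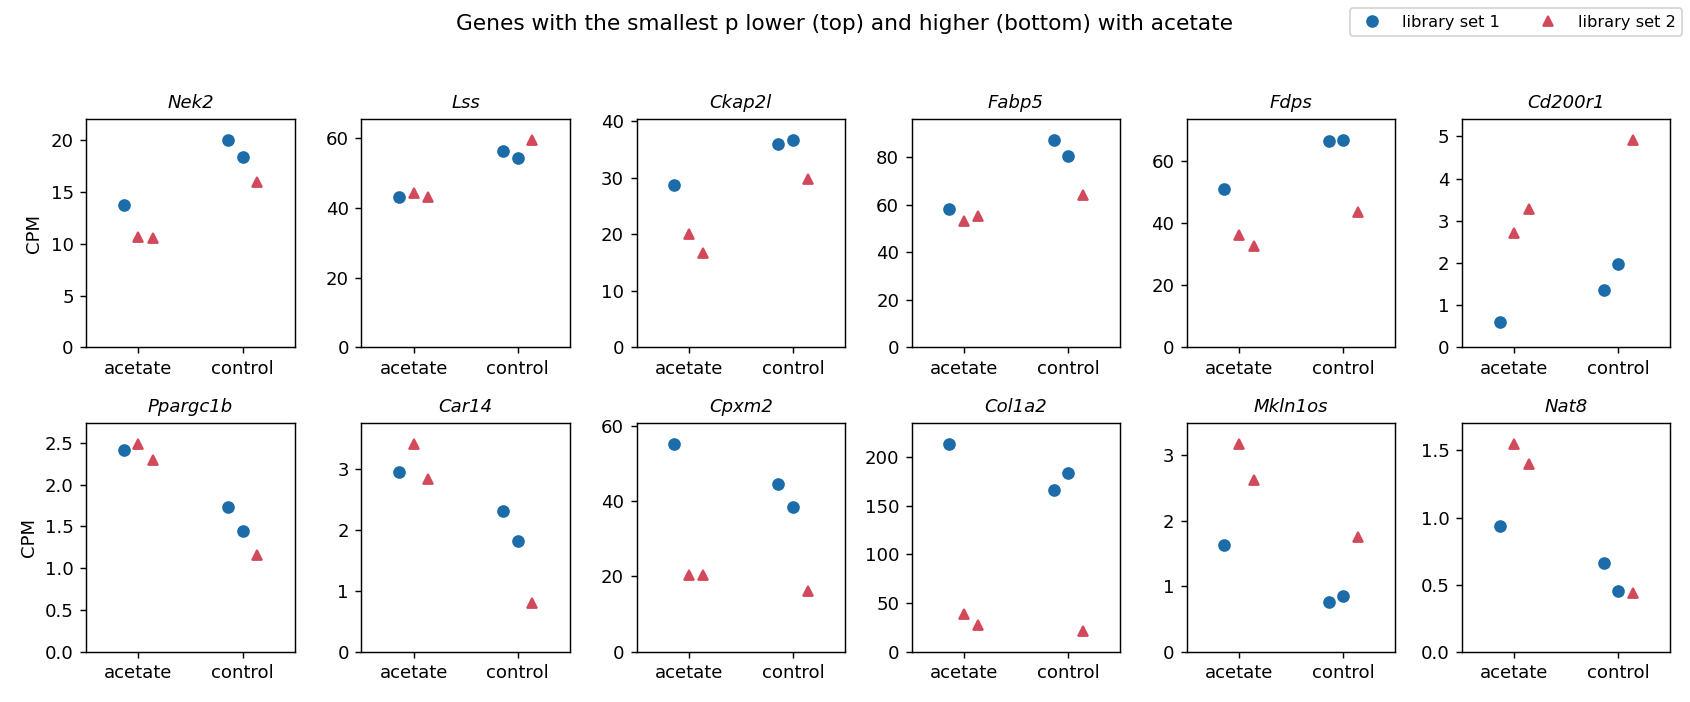
CPM of the 6 genes with the smallest unadjusted p lower with acetate (top row) and higher with acetate (bottom row), in each of the 3 acetate and 3 control libraries. Blue circles are set 1 and red triangles set 2, and each vertical axis starts at 0. Lss lies between 43.2 and 44.4 CPM in the 3 acetate libraries and between 54.4 and 59.7 CPM in the 3 controls, while Cpxm2 and Col1a2 differ more between sets than between groups.

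Among the other genes with the smallest p, Fabp5, a carrier of fatty acids in the cytosol (chromosome 3, 10012585 to 10016611, plus strand), had 58.4, 53.2 and 55.3 CPM with acetate, against 87.4, 80.7 and 64.1 CPM in controls. The groups did not overlap, and the gap was smaller in set 2 (log2 -0.37, SE 0.083, -0.52 in set 1 and -0.24 in set 2). The 17 genes of fatty acid binding and uptake as a list had a median of -0.03 with 13 below 0, and 8 below 0 with median-of-ratios scaling. Cd200r1, an inhibitory receptor of microglia and other myeloid cells, had 0.603, 2.72 and 3.28 CPM, against 1.35, 1.99 and 4.93 CPM in controls. Its groups overlapped across sets and its level in set 1 was near the detection filter (log2 -0.63, SE 0.15).

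Of the 6 genes with the smallest p among those higher with acetate, 4 stayed below 4 CPM in every library. Car14, a membrane carbonic anhydrase (chromosome 3, 95897768 to 95904686, minus strand), had 2.95, 3.41 and 2.83 CPM with acetate, against 2.31, 1.81 and 0.803 CPM in controls. The groups did not overlap, and control 3 was the lowest library (log2 0.74, SE 0.19, unadjusted p = 0.00244, 0.37 in set 1 and 1.19 in set 2, and 0.38 without control 3). Ppargc1b, a coactivator of genes of mitochondria and fat oxidation, had 2.41, 2.49 and 2.30 CPM, against 1.74, 1.44 and 1.15 CPM in controls (log2 0.54, SE 0.13). Nat8, an acetyltransferase of the ER, had 0.934, 1.55 and 1.40 CPM, against 0.662, 0.451 and 0.436 CPM in controls (log2 0.55, SE 0.15). Neither overlapped between groups. Nat8 has close copies in the mouse genome, and how shared reads were counted is not given in the sources used here. Mkln1os, which lies on the strand opposite Mkln1, stood at 0.49 (SE 0.13), and whether counting used strand is not given either, so reads of the pair cannot be told apart.

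Cpxm2 and Col1a2 were the remaining leading genes on this side, and both turned with the set covariate. Col1a2, a chain of type I collagen, had 214, 39.0 and 27.9 CPM with acetate, against 166, 184 and 20.8 CPM in controls. It was above its own controls in each set (log2 0.50, SE 0.14), and -0.48 in the fit without the set. Cpxm2, of the carboxypeptidase family, had 55.3, 20.4 and 20.5 CPM, against 44.5, 38.5 and 16.2 CPM in controls (log2 0.37, SE 0.099, and -0.09 without the set). Fibroblast and meningeal markers, which include Col1a2, had a summed level of 2122, 555 and 500.3 CPM in acetate libraries, against 1774, 1947 and 545 CPM in controls. Of 12 tested, 10 stood above 0 (5610 of all 14058 genes did), with a median of 0.17. The median was -0.00039 in set 1, where 6 were lower, and 0.37 in set 2. The fitted median was 0.43 without acetate 1, 0.28 without control 3 and 0.11 without acetate 2. The part of these cells in the values of both genes was not tested.

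By the size of the smaller of the 2 within-set differences, Syt4, Akr1b3, Ndufs5 and Nanos1 led among genes lower with acetate and Pdgfra, Rn45s, Igf2 and Car9 among genes higher. Akr1b3, the mouse aldose reductase that makes sorbitol from glucose, had 14.6, 6.08 and 8.60 CPM with acetate, against 23.5, 18.9 and 12.7 CPM in controls. It was lower within each set, at -0.50 and -0.73, with acetate 1 above control 3 (log2 -0.59, SE 0.14). Ndufs5, a small subunit of complex I, had 9.38, 4.62 and 4.27 CPM, against 14.2, 12.4 and 7.21 CPM in controls (log2 -0.55, SE 0.15). Nanos1, an RNA-binding repressor of translation, had 5.97, 3.94 and 3.86 CPM, against 7.73, 11.01 and 6.98 CPM in controls, with no overlap (log2 -0.53, SE 0.21, and -0.27 without control 3). Syt4, a synaptotagmin of vesicle release, ranged from 2.14 to 44.8 CPM in acetate libraries and from 2.86 to 53.3 CPM in controls (log2 -0.81, SE 0.37), and controls 1 and 2 of the same set stood at 2.86 and 9.34 CPM.

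Pdgfra, the growth factor receptor of oligodendrocyte progenitors and fibroblasts, had 6.36, 19.6 and 11.7 CPM with acetate, against 4.24, 2.66 and 8.67 CPM in controls. Each acetate library lay above the controls of its set, with within-set differences of 0.75 and 0.74. The fit gave 0.83 (SE 0.28), and 0.75 with the 6 libraries alone. Of the 10 oligodendrocyte markers tested, Pdgfra was the 1 that was higher in set 1. In set 2 all 10 were higher, against 6898 of all 14058 genes. Igf2 had 7.75, 14.1 and 3.77 CPM, against 6.05, 5.51 and 3.55 CPM in controls, and acetate 2 alone stood far above its control (log2 0.76, SE 0.38, and 0.28 without acetate 2). Car9, a carbonic anhydrase of the cell surface known as a hypoxia target, had 7.53, 5.51 and 7.03 CPM, against 7.08, 4.60 and 4.45 CPM in controls (log2 0.39, SE 0.21). Of 17 genes of acid-base and sodium transport, 10 stood above 0, with a median of 0.01.

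Among genes that use acetate itself, Acss1 and Acss2 stood somewhat below 0 and Acss3 above it. Acss2 had 34.6, 29.3 and 22.9 CPM with acetate, against 42.6, 38.9 and 27.1 CPM in controls, lower within each set by the means, with acetate 2 above control 3 (log2 -0.14, SE 0.10, 95% interval -0.37 to 0.08). Acss1 had 57.0, 55.9 and 61.8 CPM, against 61.1, 61.0 and 64.2 CPM in controls (log2 -0.11, SE 0.075). Each acetate library lay below the controls of its own set, by about 2 to 8 CPM. Acly, which makes acetyl-CoA from citrate, had 153, 115 and 108 CPM, against 176, 172 and 123 CPM in controls (log2 -0.16, SE 0.071, unadjusted p = 0.0454). The 5 genes of acetyl-CoA synthesis and export had a median of -0.11, with 3 below 0, Slc25a1, the mitochondrial citrate carrier, at 0.12 and Acss3 at 0.19.

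All 4 genes of monocarboxylate transport, through which acetate and lactate cross membranes, stood above 0 under each scaling, with a median of 0.18. Slc16a1 (transporter MCT1) had 235, 441 and 423 CPM with acetate, against 189, 205 and 440 CPM in controls. It was 0.25 higher in set 1 and 0.03 lower in set 2, for a log2 difference of 0.10 (SE 0.086). Slc16a7 (MCT2) stood at 0.27 (SE 0.16) and was the 1 of the 4 that was higher in both sets, at 0.19 in set 1 and 0.35 in set 2. Bsg, the partner that brings MCT1 to the membrane, stood at 0.11 (SE 0.10), with -0.09 in set 1 and 0.31 in set 2. Slc16a3 (MCT4) stood at 0.26 (SE 0.29), with -0.59 in set 1 and 1.02 in set 2. None of the 4 had an unadjusted p under 0.05. Over the whole acetate and acetyl-CoA list, 10 of 17 genes stood above 0 and the median was 0.01.

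Aspa, which frees acetate from N-acetylaspartate, had 0.934, 0.762 and 0.942 CPM with acetate, against 1.16, 2.89 and 1.04 CPM in controls. The groups did not overlap, yet all 3 acetate libraries lay below the CPM of 1 used as the filter (log2 -0.36, SE 0.21, and -0.13 without control 2). In the tricarboxylic acid cycle, 20 of 27 genes stood below 0 with a median of -0.03, but 12 of 27 did so with median-of-ratios scaling. Idh3b, a subunit of isocitrate dehydrogenase, had 84.3, 82.0 and 79.7 CPM, against 94.0, 88.9 and 87.4 CPM in controls, with no overlap (log2 -0.12, SE 0.070, unadjusted p = 0.12). Sdhd, an anchor of succinate dehydrogenase, had 68.0, 44.0 and 45.7 CPM, against 82.9, 77.9 and 44.3 CPM in controls, lower in set 1 and level in set 2 (log2 -0.11, SE 0.083). Pdk4, the kinase that closes pyruvate entry, had 30.1, 32.0 and 29.5 CPM, against 31.2, 33.9 and 32.9 CPM in controls (log2 -0.09, SE 0.085).

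Of 43 nuclear genes of oxidative phosphorylation, 26 stood below 0 (15 with median-of-ratios scaling) with a median of -0.02, as for all genes. Ndufs5, described above, is not in this list. The list split by set. In set 1, 40 of 43 were lower (8653 of all 14058 genes), and in set 2, 29 of 43 were higher (6898 of all genes). Atp5j, a stalk subunit of the ATP synthase, had 80.9, 66.7 and 66.2 CPM with acetate, against 91.3, 91.7 and 71.1 CPM in controls (log2 -0.13, SE 0.070). Cox7c, a small subunit of cytochrome c oxidase, had 1.69, 2.03 and 2.67 CPM, against 2.69, 2.75 and 2.61 CPM in controls, with acetate 3 among the controls (log2 -0.36, SE 0.19). Of 30 genes of fatty acid oxidation and PPAR targets, 25 stood above 0 (27 with median-of-ratios scaling), with a median of 0.03. In set 1, 18 of 30 were lower (median -0.03), close to the share of all genes (8653 of 14058, median -0.05). In set 2, 25 of 30 were higher (median 0.08), against 6898 of all genes. In both sets 9 of 30 were higher (14.5% of all genes). The list was led by Ppargc1b, and Ehhadh, an enzyme of peroxisomal oxidation, stood at 0.20 (SE 0.13).

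Fatty acid synthesis had 11 of 20 genes below 0 (6 with median-of-ratios scaling) and a median of -0.01. Scd1, which puts the double bond into saturated fatty acids, had 308, 210 and 205 CPM with acetate, against 285, 316 and 300 CPM in controls. It was 0.04 higher in set 1 and 0.53 lower in set 2 (log2 -0.26, SE 0.11, unadjusted p = 0.0434). Elovl1, an elongase of very long fatty acids, stood at -0.14 (SE 0.087), with -0.26 in set 1 and -0.01 in set 2. Among 32 writers, erasers and readers of histone acetylation, 17 stood below 0 (9 with median-of-ratios scaling), with a median of -0.0045. Hdac11, a deacetylase, had 22.3, 28.8 and 25.6 CPM, against 25.0, 19.2 and 19.0 CPM in controls (log2 0.28, SE 0.13). Hat1, which acetylates newly made histones, had 39.4, 30.7 and 31.8 CPM, against 35.4, 44.3 and 37.5 CPM in controls (log2 -0.13, SE 0.10). In both, acetate 1 lay between its 2 controls.

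Glycolysis was split between sets. In set 1, 16 of 19 genes were lower (median -0.12), against 8653 of all 14058 genes. In set 2, 14 of 19 were higher (median 0.20), against 6898 of all genes. Hk2, the hexokinase that many cells induce, followed that split in set 1 and went against it in set 2. It had 23.1, 57.9 and 56.5 CPM with acetate, against 32.8, 30.4 and 70.2 CPM in controls, at -0.44 in set 1 and -0.29 in set 2 (log2 -0.35, SE 0.082, unadjusted p = 0.00135). Without the set covariate Hk2 stood at 0.04. Pfkfb3, which makes the activator of phosphofructokinase, had 166, 273 and 278 CPM, against 180, 182 and 312 CPM in controls (log2 -0.15, SE 0.071, and 0.10 without the set).

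Genes that read glucose gave no common direction. Txnip, a target of the glucose sensors MondoA and ChREBP that restrains glucose uptake, had 30.3, 10.7 and 7.02 CPM with acetate, against 31.7, 34.8 and 7.27 CPM in controls. The log2 difference was 0.02 (SE 0.15, 95% interval -0.30 to 0.35), and acetates 1 and 3 lay close to the controls of their sets. Ogt, which adds the sugar N-acetylglucosamine to proteins, had 239, 172 and 219 CPM, against 245, 243 and 269 CPM in controls, with no overlap (log2 -0.27, SE 0.12). Mlx, the partner of MondoA and ChREBP, had 20.7, 29.1 and 28.8 CPM, against 24.3, 23.7 and 32.4 CPM in controls (log2 -0.17, SE 0.079). Of the 9 genes of this list 6 stood below 0, with a median of -0.10.

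**Figure D4:**
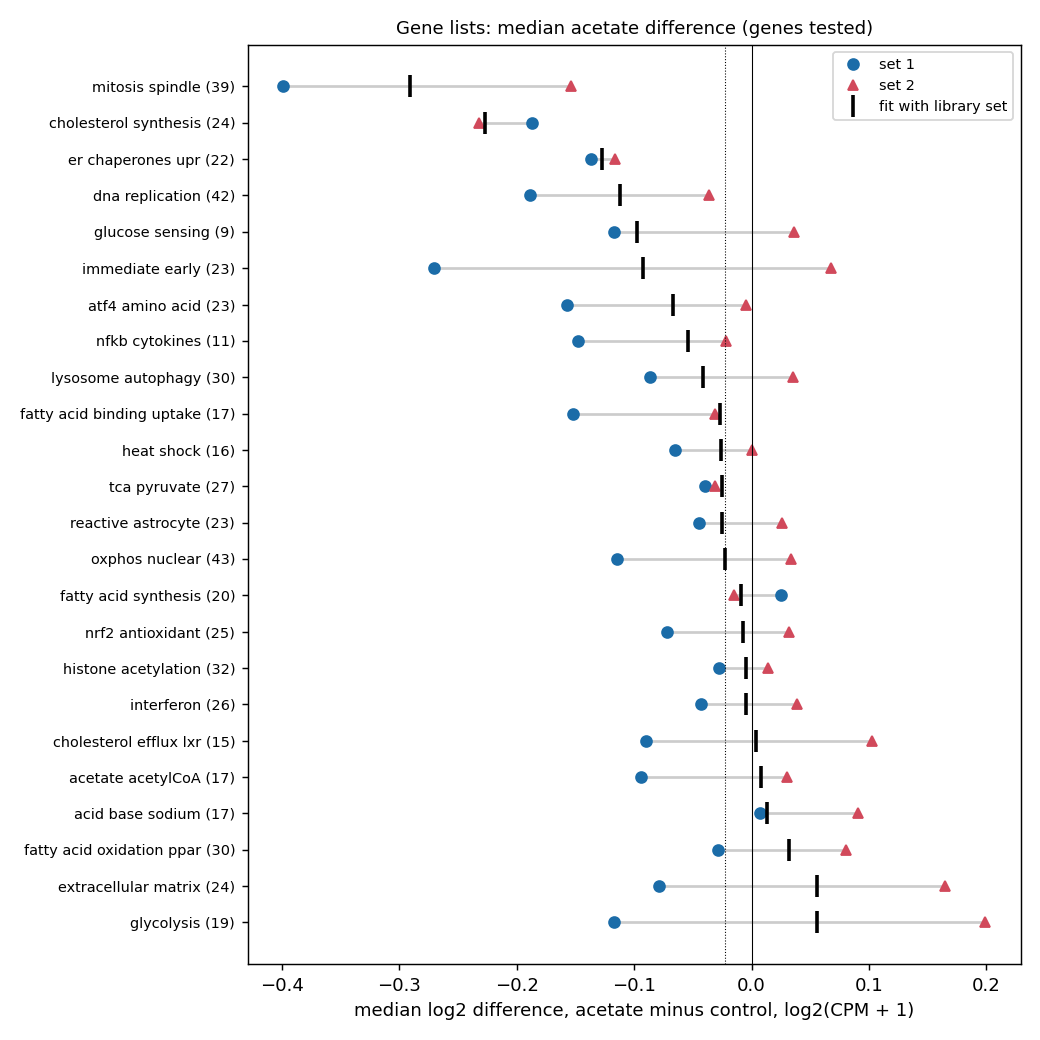
Median acetate difference of 24 gene lists, acetate minus control in log2(CPM + 1), with the number of genes tested in brackets. Lists of cell type markers are not plotted. Blue circles are set 1, red triangles set 2, black bars the fit with the library set, and the dotted line the median of all genes, -0.02. Mitosis (-0.29) and cholesterol synthesis (-0.23) stand farthest below that line with both sets below it, and glycolysis and extracellular matrix have their sets on opposite sides of 0.

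ER chaperones and genes of the unfolded protein response also stood mostly below 0 in both sets. Of 22 members 21 stood below 0 (20 with quantile scaling), with a median of -0.13, which was -0.14 in set 1 and -0.12 in set 2. In both sets 17 were lower (27% of all genes), and 5 lay below the controls of their own set (10.6%). Against control 3, the median was -0.34 in acetate 2 and 0.06 in acetate 3, so the set 2 value rests on acetate 2. The list median was -0.06 without acetate 2 and -0.22 without acetate 3. Syvn1, a ubiquitin ligase that clears misfolded ER proteins, had 45.7, 221 and 237 CPM with acetate, against 52.6, 48.1 and 282 CPM in controls (log2 -0.24, SE 0.084). The list's level was 2.44 higher on the log2 scale in set 2 than in set 1, and without the set covariate its median was 0.72.

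Atf3, a stress transcription factor, had 6.57, 161 and 159 CPM with acetate, against 11.2, 15.8 and 163 CPM in controls. Its difference was -0.92 in set 1 and -0.03 in set 2, and the list of ATF4 targets it belongs to had a median of -0.07, with 18 of 23 below 0. Immediate early genes had 21 of 23 members lower in set 1 (median -0.27) and 14 of 23 higher in set 2 (median 0.07). Of all 14058 genes, 8653 were lower in set 1 and 6898 higher in set 2. Dusp6, a phosphatase that ERK signalling induces, was lower in both sets, with 113, 96.7 and 84.3 CPM with acetate, against 131, 138 and 103 CPM in controls (log2 -0.22, SE 0.078, unadjusted p = 0.0167). Medians of the other 8 stress, sterol efflux, inflammatory, lysosomal and matrix lists lay between -0.05 and 0.06.

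The cultures carried RNA of cells besides astrocytes. Summed over 15 markers, the astrocyte level was 11356, 13868 and 11913 CPM in acetate libraries, against 11258, 10636 and 12160 CPM in controls. Gfap, the intermediate filament of astrocytes, had 4126, 6111 and 4767 CPM, against 4094, 3433 and 5037 CPM in controls (log2 0.13, SE 0.12). Gjb6, an astrocyte gap junction gene of the mature cortex, was at most 0.211 CPM in the 6 libraries. Endothelial Pecam1 was at most 0.181 CPM and Cdh5 at most 0.28 CPM. Of the astrocyte markers, 9 of 14 tested stood above 0 (5610 of all 14058 genes did), with a median of 0.02.

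Microglia markers had opposite signs in the 2 sets. Summed over 15 genes, they had 178, 705 and 690 CPM in acetate libraries, against 299, 287 and 592 CPM in controls. Csf1r, the growth factor receptor of microglia, had 1.60, 24.5 and 22.3 CPM with acetate, against 5.33, 3.66 and 20.4 CPM in controls. All 14 markers tested were lower in set 1 (median -0.95), against 8653 of all 14058 genes. In set 2, 12 of 14 were higher (median 0.24), against 6898 of all genes. The fit with the library set gave a median of -0.22, with 11 of 14 below 0 (60.1% of all genes). That lies near the cholesterol median of -0.23, although the sets of the microglia list had opposite signs. By unadjusted p under 0.05, 3 markers were lower (2.43% of all genes). In bulk RNA, fewer cells of a type and less RNA per cell cannot be told apart. Acetate 1, the library of low microglia level, is the sole acetate library of set 1, and the set 1 values of every list above rest on it. The part of microglia in the mitosis and cholesterol values was not tested.

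Oligodendrocyte lineage markers summed to 777, 368 and 273 CPM in acetate libraries, against 1010 (control 1), 960 (control 2) and 243 CPM (control 3). Their median was -0.40 in set 1 and 0.38 in set 2. Olig1 had 491, 84.1 and 51.9 CPM, against 634, 619 and 52.5 CPM in controls. Mural markers, of vessel wall cells, had 3091, 777 and 552 CPM, against 3876, 3449 and 549 CPM in controls. Of 7 tested, 6 were lower in set 1 (8653 of all 14058 genes) and 6 were higher in set 2 (6898 of all genes). Mitosis and replication genes were likewise farther below 0 in set 1, where these marker levels were lower with acetate, and their part in those values was not tested. The cholesterol medians were -0.19 in set 1 and -0.23 in set 2, and the part of these cell types in them was not tested either.

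**Figure D5:**
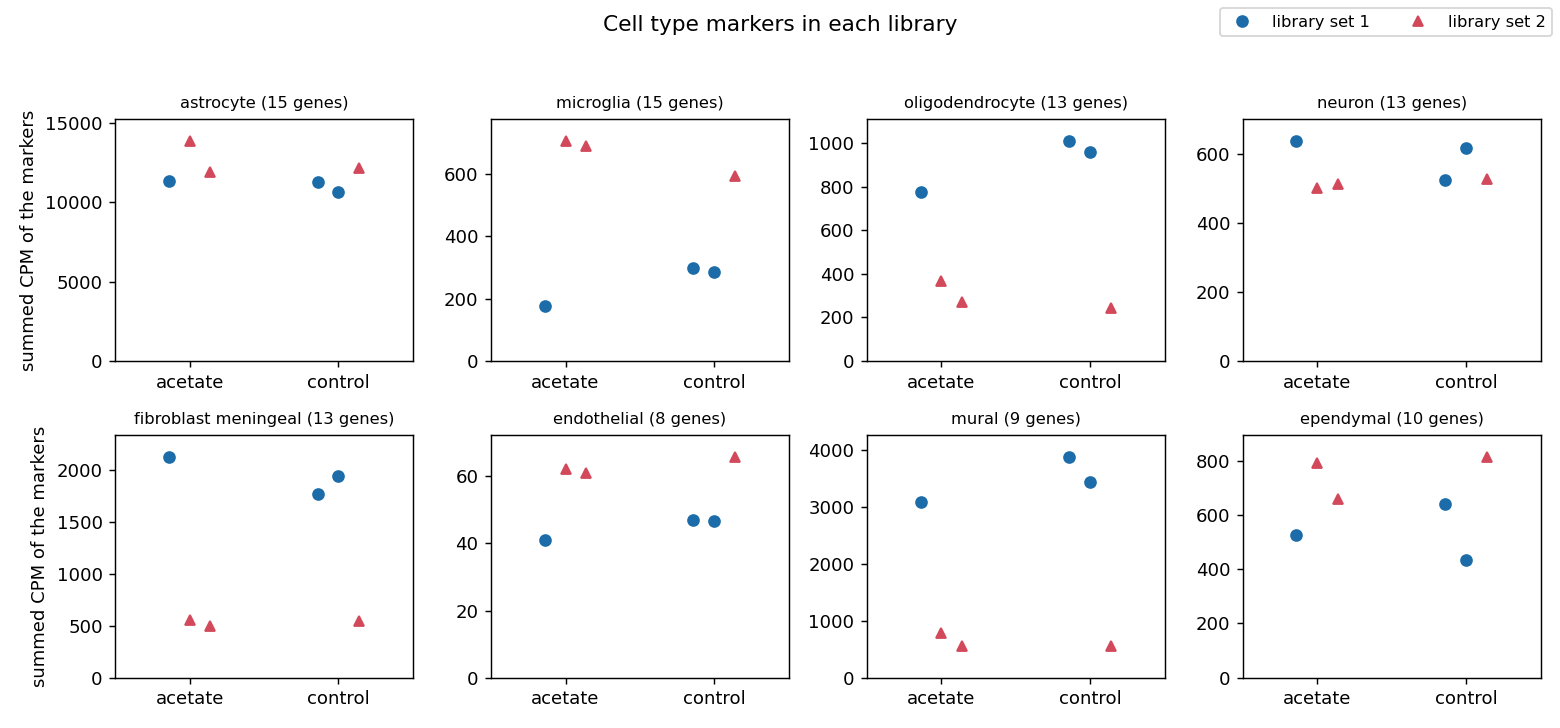
Summed CPM of the markers of 8 cell types in the 3 acetate and 3 control libraries. Blue circles are set 1 and red triangles set 2, and each vertical axis starts at 0. Microglia markers are lowest in acetate 1 (178 CPM) and highest in acetates 2 and 3 (705 and 690 CPM), and fibroblast, mural and oligodendrocyte markers separate the sets more than the groups.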

How the data were processed

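RNA-seq libraries of 9 cultures, polyA-selected and read as pairs per the labels' protocols, were analysed. The authors deposited CPM for 18061 genes per library, each summing to 1000000, and the submitters' processing notes name Partek, FastQC and STAR 2.7.3a. The counter and its strand setting are not given in the sources used here. Positions overlapped RefSeq GRCm38.p6 genes for 17859 of 17902 symbols found (99.76%). The authors' second sheet of scores was not used. Single-gene values of 2 cholesterol genes are not reported here, although both count in the list. Whole reads were not recovered from the CPM, so no count model was run.

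The 14058 genes that reached a CPM of 1 in 3 or more of 9 libraries entered a two-sided limma test (version 3.58.1, R 4.3.3) on log2(CPM + 1). The prior was trended and robust, and the model had 3 groups, the library set as covariate and 5 residual degrees of freedom. P-values were adjusted by Benjamini-Hochberg over all genes, with a threshold of 0.05. The method was tested on simulated data with independent genes and the same acetate difference in both sets. That test says nothing about differences that vary by set or about genes that vary together. The 32 gene lists, 8 of them cell type markers, and the comparison were chosen with earlier results of these data known, and lists are described by counts and medians with no test.

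Named genes were the 6 with the smallest p in each direction (none passed), the 4 in each direction with the largest smaller within-set difference among genes beyond their own set's controls whose mean CPM reached 5, the 2 or 1 members with the smallest p of each main or other list, and Acss1, Acss2, Acly, Slc16a1, Txnip, Pdk4 and Gfap. The deposited text gives no batch dates. Neither titles nor library names are stated to pair the samples. By title number, controls 1 and 3 deviated with acetates 1 and 3 (r = 0.833 and 0.908), which lie in their own sets. Control 2 and acetate 2, of different sets, deviated in opposite directions (r = -0.842). With the set removed these were -0.408, -0.022 and -0.186. By library-name number, control 2 deviated with acetate 1 (r = 0.890) and control 3 with acetate 2 (r = 0.804), but each such pair lies in 1 set. Those values were -0.105 and -0.499 with the set removed. The first values follow the set, and the group and set fit itself shapes the correlations among its residuals. They therefore cannot decide whether samples were paired. Promoter windows came from RefSeq, 32851 windows of 27025 genes.

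Alternatives were other pseudocounts (0.5 and 0.1), filters, scalings, priors, array weights, fits without the set, blocks, and each of the 6 libraries left out.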

Additional observations from a re-analysis of the deposited data

Results flagged for a closer look

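Microglia markers had opposite signs in the 2 library sets: their median acetate difference was -0.95 in set 1 and 0.24 in set 2. Oligodendrocyte markers did the same, with -0.40 in set 1 and 0.38 in set 2. The difference between the sets was not tested for either list. In the tests of single genes, set 2 minus set 1 called no gene (limma, smallest adjusted p = 0.0906, with 1016 genes at an unadjusted p under 0.05).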

How the results depend on the processing

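For acetate against control, no gene passed the threshold under any fit run. With a replicate block, by title number with or without the library set or by library-name number, 0 genes were called in each direction, and the count at an unadjusted p under 0.05 was 448, 465 and 668, against 453 without a block. The block changed no call. It was 39 without the set, 267 with the 6 libraries alone, 750 with array quality weights, and 434 to 836 when 1 library was left out. The interaction called 1 gene with the 6 libraries alone, and it could not be estimated without control 3 or acetate 1. Genes beyond their own set's controls numbered 1167 higher and 953 lower with median-of-ratios scaling and 1052 higher with quantile scaling, against 621 higher and 1497 lower. Leaving out 1 library gave 988 to 1709 higher and 2147 to 2827 lower, since fewer libraries must be passed.

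The mitosis median ranged from -0.20 (without control 2) to -0.56 (without the set), with 36 to 39 of 39 members lower. The cholesterol median ranged from -0.15 (without acetate 3) to -0.51 (without the set), with 21 to 24 of 24 lower. The microglia median was 0.38 without acetate 1.

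Without the set, and with the title block without the set, signs turned for Syt4 (0.16), Atf3 (0.85), Hk2 (0.036), Syvn1 (0.58), Gbp3 (0.19), Srxn1 (0.15), Pfkfb3 (0.10), Txnip (-0.57), Cpxm2 (-0.086) and Col1a2 (-0.48). Those fits leave the set difference in the groups, since set 1 holds 2 of 3 controls and 1 of 3 acetate libraries. Txnip also turned with array quality weights (-0.10), without control 3 (-0.14), without acetate 2 (-0.11) and in set 1 alone (-0.13), and leaving out single libraries gave -0.14 to 0.13. Slc16a1 turned without acetate 1 (-0.0076, with 0.18 as the highest value when a library was left out) and in set 2 alone (-0.028), Scd1 in set 1 alone (0.037) and Sdhd in set 2 alone (0.016). For these the cause was not tested. Of 53 named genes, 49 had both within-set values of the main sign, while 41.5% of all genes had the same sign in both sets. The naming rules, by small p or by lying beyond the controls in both sets, favour such genes, so this count supports nothing. Of the 53, 24 moved by over 1.5 times when some single library was left out, 17 of them without control 3 and 14 without acetate 1. Counts of members by list and scaling, of genes at an unadjusted p under 0.05 and medians of all genes were alternatives added after seeing the data. With 3 libraries a group and 5 residual degrees of freedom, the median standard error was 0.11 on the log2 scale.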

Other observations

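Genes named by their place in other lists, none past the threshold, gave these values. Ptgs2, the inducible cyclooxygenase, had 5.06, 3.84 and 4.85 CPM with acetate, against 7.19, 7.45 and 4.59 CPM in controls (log2 -0.32, SE 0.19). Its groups overlapped through control 3. Tgm1, a transglutaminase used as a marker of reactive astrocytes, had 3.50, 39.2 and 38.9 CPM, against 2.72, 3.39 and 29.5 CPM in controls. It was above its own controls in each set, by 0.16 and 0.40 (log2 0.24, SE 0.12). Gbp3, a guanylate-binding protein that interferon induces, had 14.7, 35.7 and 30.3 CPM, against 15.8, 16.8 and 39.5 CPM in controls. It was below its own controls in each set (log2 -0.20, SE 0.13), while the interferon list had a median of -0.0044.

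Cyp46a1, the enzyme that makes 24-hydroxycholesterol in brain, had 20.8, 28.5 and 24.5 CPM with acetate, against 28.5, 25.5 and 28.5 CPM in controls (log2 -0.25, SE 0.10). Acetate 1 was the lowest library and acetate 2 equalled control 3 to 3 digits. Gla, a lysosomal galactosidase, had 13.2, 18.8 and 16.4 CPM, against 17.7, 20.1 and 19.5 CPM in controls (log2 -0.28, SE 0.12, and -0.092 without acetate 1). Srxn1, an NRF2 target that repairs peroxiredoxins, had 37.0, 66.9 and 82.9 CPM, against 41.2, 43.8 and 82.9 CPM in controls (log2 -0.17, SE 0.10). Hspe1, the mitochondrial chaperonin partner, had 62.9, 62.1 and 65.6 CPM, against 67.1, 65.8 and 68.5 CPM in controls, with no overlap and a difference of -0.07 (SE 0.076).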
